A study of Mus musculus with 28 samples.

Results

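Depletion of KAP1 from wild-type (WT) mouse embryonic stem (ES) cells was followed here across annotated genes, by comparing 3 RNA-seq libraries of cells given a hairpin against Kap1 (shKap1) with 3 libraries of cells given an empty vector (shEmpty). These 6 libraries were chosen by their genotype and hairpin labels, out of 16 RNA libraries and 28 samples in the series. The cells were of the J1 line, strain 129S4/SvJae, kept naive in N2B27 medium with LIF and 2 inhibitors, PD0325901 at 1 µM against MEK and CHIR99021 at 3 µM against GSK3. Both arms were transduced with a lentiviral vector, selected with puromycin at 4 µg/mL and collected after 5 days. By the account of the study, Kap1 knockdown stops proliferation and kills many cells, beginning before that day. The shKap1 libraries therefore come from the cells still present, and the part of this in the values was not tested. The other RNA libraries came from DNMT TKO cells, which lack Dnmt1, Dnmt3a and Dnmt3b (n = 3 per hairpin), and from TET TKO cells, which lack Tet1, Tet2 and Tet3 (n = 2 per hairpin), and they served here for the estimate of spread and for the test of line differences. Each genotype was a single line and 1 hairpin was used, so a property of the line or of the hairpin cannot be told apart from the genotype or from the loss of KAP1. Of 37991 genes in the tables, 20321 had at least 16 reads over the 16 libraries and were tested.

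KAP1, encoded by Trim28, is a corepressor that KRAB zinc finger proteins bring to their DNA sites, where it recruits the methyltransferase SETDB1 and thereby H3K9me3, and it is best known for silencing endogenous retroviruses in early embryonic cells. Naive ES cells keep the state of the pre-implantation epiblast through factors such as Oct4 (Pou5f1), Sox2, Nanog, Esrrb and Klf4 under LIF signalling. They can leave this state towards the formative epiblast and the germ layers, and rare cells in culture pass through a state with transcripts of the 2-cell embryo, driven by the transcription factor Dux.

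The reads on genes numbered 18613633, 28574396 and 28707470 in shEmpty and 18693077, 22201148 and 18108431 in shKap1. The first principal component, which separated the hairpins, held 85.3% of the variance over these 6 libraries, and the second, on which replicate 1 of both arms stood apart, held 9.07%. Levels are given in CPM, the reads of a gene scaled to the reads on all genes with TMM factors, as mean ± SD over 3 libraries or for each library, and changes as log2 of shKap1 over shEmpty ± SE from edgeR. Adjusted p-values are from the edgeR quasi-likelihood test with Benjamini-Hochberg adjustment over all genes tested. A gene is said to have risen or fallen where its adjusted p was below 0.05 and its change at least 2-fold.

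The hairpin was designed against a 21-base site in a coding exon of Trim28, at chr7:13615908-13615928 of mm9 on the plus strand. This sequence, shown because the perturbation rests on it, occurred at 1 site in the gene and, among annotated protein-coding transcripts, only in Trim28.
Kap1 hairpin target: ccgcatgttcaaacagttcaa
Trim28 (ENSMUSG00000005566, chr7:13609501-13616384) stood at 1991, 1639 and 1626 CPM in the shEmpty libraries and 190.0, 156 and 149 CPM in the shKap1 libraries. All shKap1 libraries lay far below all shEmpty libraries, and the fall from 1752 ± 207 to 165 ± 21.9 CPM (log2 change -3.41 ± 0.16, adjusted p = 2.2e-09) was in the direction of the labels. The Oct4 gene Pou5f1, the defining marker of these cells, was present in all 6 libraries, at 841, 837 and 836 CPM in the shEmpty libraries and 768, 772 and 779 CPM in the shKap1 libraries (log2 change -0.12 ± 0.06, adjusted p = 0.14), a difference below the fold threshold and with an adjusted p above 0.05.

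Among the 20321 genes tested, 2200 (10.8%) rose and 1329 (6.54%) fell, so that 17.4% changed in either direction. The 3 shKap1 values lay above all 3 shEmpty values for 27% of the genes tested and below them for 27.4%. The median log2 change over all genes tested was -0.01. Genes that rose were mostly near silent before the knockdown. Their median level was 0.423 CPM in shEmpty and 2.11 CPM in shKap1, or 0.161 and 0.875 per kilobase of exon (RPKM), and 1393 of them (63.3%) were below 1 CPM in shEmpty, 167 with no read at all. Genes that fell started higher, at a median of 3.03 CPM, and ended at 0.848 CPM, with 30.9% below 1 CPM in shEmpty. The 16792 genes that did neither had medians of 12.7 and 12.5 CPM. Since the groups were chosen on the same change, these medians are a description. A change of at least 8-fold was seen for 670 of the risen genes (30.5%) and for 188 of the fallen genes (14.1%). Most changed genes were protein coding, 85.2% of the risen and 87.7% of the fallen, while annotated pseudogenes made up 6.05% and 2.41%. Among genes at 1 CPM or more, 1391 rose, 918 fell and 11904 did neither, so the 10.8% above is not the background of this set. The share of them that rose ran over the autosomes and chromosome X from 4.71% on chromosome 19 to 15.5% on chromosome 13, with 14.5% on chromosome X. On chromosome Y 2 of 6 such genes rose.

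**Figure D1:**
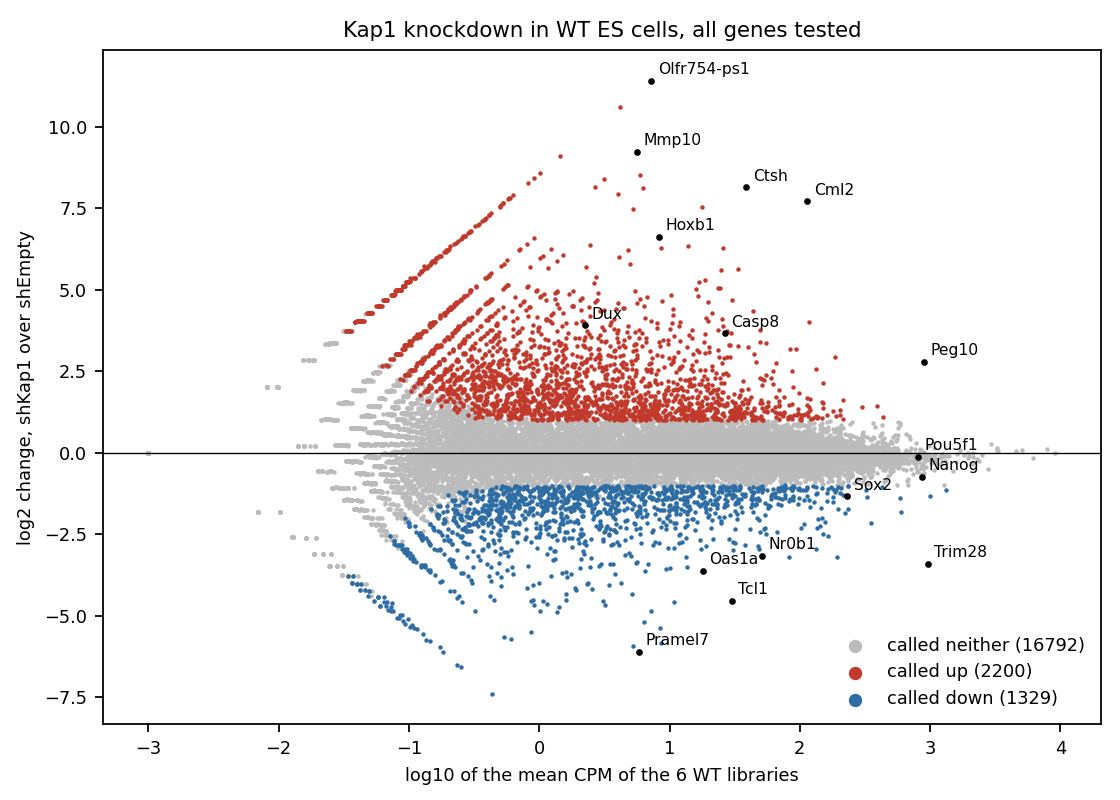
Log2 change on Kap1 knockdown (vertical axis) against log10 of the mean CPM over the 6 WT libraries after adding a small constant (horizontal axis), with 1 point per gene tested in red where the gene rose, blue where it fell and grey otherwise, and selected genes in black with their names. The risen genes reach further from 0 than the fallen ones, with 670 against 188 at 8-fold or more, and Trim28 stands among the fallen genes at a high level. The diagonal streaks at the left are genes with few reads.

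The 10 largest rises, among risen genes with at least 5 CPM in shKap1 and no overlap between the arms, were almost all of genes with no more than a few reads in shEmpty. They were Olfr754-ps1, Gm1110, Mmp10, Gm20429, A630077J23Rik, Sectm1a, Ctsh, Abp1, Clec2i and Cml2, and their order and size are the basis of their choice. Olfr754-ps1, an olfactory receptor pseudogene, had 0, 0 and 0 CPM in the shEmpty libraries and 11, 17.9 and 14.4 CPM in the shKap1 libraries, at least 363-fold higher when the silent arm is set to a floor of 3 reads in all. Gm1110 had 0, 0 and 0 CPM in shEmpty and 6.5, 9.05 and 9.49 CPM in shKap1, at least 208-fold higher by the same floor. Mmp10, a secreted protease that degrades extracellular matrix, had 1 read over the shEmpty libraries and 686 over the shKap1 libraries, a ratio of 837 with a 95% counting interval of 150.0 to 33123. By the rule of their choice, no shEmpty library reached any shKap1 library, and replicate 1 of shKap1 was the lowest of its arm for Gm1110 and Olfr754-ps1. Ctsh, which encodes the lysosomal protease cathepsin H, rose from 0.257 ± 0.0797 to 77.0 ± 16.8 CPM (log2 change 8.14 ± 0.25, adjusted p = 1.3e-13) with 0.167, 0.285 and 0.318 CPM in shEmpty and 57.8, 84.2 and 89.0 CPM in shKap1. Cml2 rose from 1.05 ± 0.148 to 226 ± 57.9 CPM (log2 change 7.71 ± 0.30, adjusted p = 8.3e-10), with 0.889, 1.17 and 1.10 CPM in shEmpty and 159, 257 and 262 CPM in shKap1. Abp1 had 3 reads in shEmpty and 766 in shKap1, a ratio of 312 (106 to 1515). Cml2 and Ctsh thus had a measurable level before the knockdown, unlike the rest. The reads of shEmpty and shKap1 were 1 and 327 for Sectm1a, an interferon-inducible secreted protein, 2 and 491 for Clec2i, a C-type lectin that natural killer cell receptors bind, 2 and 726 for Gm20429, and 1 and 385 for A630077J23Rik. These intervals cover counting error only.

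Of these 10 genes, 9 had a region bound by KAP1 within 10 kb of their start, and 9 a region whose H3K9me3 depends on KAP1, from the region sets deposited for WT cells. In the 10 largest falls, the same counts were 1 and 0. A KAP1 region lay within 10 kb of 23.5% of all risen genes, 14.6% of genes with no call and 11.8% of fallen genes, and a region with KAP1-dependent H3K9me3 of 17.5%, 6.26% and 3.61%. LTR or L1 elements within 20 kb of these genes were listed where they had at least 50 reads over the 6 libraries, which every listed element reached in shKap1 and none in shEmpty, so their values are a description with no comparison. Such elements were found for 7 of the 10 largest rises, and none for Ctsh, Gm1110 or Abp1. Upstream of Mmp10 on the same strand, an MMETn element 3062 bp away went from 47 to 873 reads (shEmpty to shKap1, summed over 3 libraries) and an LTRIS_Mm element 2176 bp away from 0 to 62. An RMER16-int:RLTR9A element, 644 bp upstream of Gm20429 and 3158 bp upstream of Olfr754-ps1, went from 1 to 821 reads. These 2 genes share that element and neighbour each other on chromosome 17. An ETnERV element 853 bp upstream of A630077J23Rik went from 8 to 180 reads. IAPEz proviruses on the opposite strand lay 6314 bp downstream of Sectm1a, with 0 reads in shEmpty and 626 in shKap1, and 16964 bp downstream of Clec2i, with 1 and 243 reads. Whether the gene transcripts begin in these elements was not tested, because the tables hold no splice junctions.

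KAP1 bound within 1 kb of the start in 2 of the 10 genes, Abp1 and Cml2. Their promoters, 250 bases before to 50 bases after the annotated start, are shown because one lies partly in a retroviral element and the other does not. Capitals mark bases inside an annotated LTR element, and the sequences were read from the reference genome NCBIM37 (mm9).
Abp1 promoter, chr6:48845003-48845302, plus strand: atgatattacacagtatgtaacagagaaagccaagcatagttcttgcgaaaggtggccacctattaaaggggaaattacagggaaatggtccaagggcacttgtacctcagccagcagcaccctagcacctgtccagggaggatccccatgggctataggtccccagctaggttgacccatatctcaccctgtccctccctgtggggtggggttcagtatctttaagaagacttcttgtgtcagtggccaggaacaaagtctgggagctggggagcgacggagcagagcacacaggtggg
Cml2 promoter, chr6:85819103-85819402, minus strand: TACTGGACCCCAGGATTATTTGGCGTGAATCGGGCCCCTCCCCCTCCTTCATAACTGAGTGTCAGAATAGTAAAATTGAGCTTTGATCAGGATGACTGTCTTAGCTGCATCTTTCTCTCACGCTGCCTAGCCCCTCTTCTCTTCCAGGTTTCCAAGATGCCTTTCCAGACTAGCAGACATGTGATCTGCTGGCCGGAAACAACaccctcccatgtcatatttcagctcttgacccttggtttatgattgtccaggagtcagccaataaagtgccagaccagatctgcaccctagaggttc
No base of the Abp1 window lay in an LTR element, while 203 of 300 bases of the Cml2 window did. The element there, an ERVB7_2B-LTR_MM:ETnERV-int copy on the same strand whose nearest edge lay 48 bp upstream of the Cml2 start, went from 41 reads in shEmpty to 6734 in shKap1. Further elements on that strand also had reads near Cml2. Among them, a MERVL provirus 1788 bp upstream went from 15 to 1048 reads and an RMER15 element 2651 bp downstream from 10 to 3014.

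The 10 largest falls, chosen in the same way, were of Pramel7, C330046G13Rik, Pramel6, Pgc, Trpm1, Gm13128, Chrna4, Krt42, Fgf17 and Tcl1, and most of these were low to moderate in shEmpty. Pramel7 stood at 5.72, 15 and 13.7 CPM in the shEmpty libraries and 0.105, 0.217 and 0.160 CPM in the shKap1 libraries (log2 change -6.11 ± 0.49, adjusted p = 2.0e-07). Pramel6 stood at 7.39, 22.3 and 20.9 CPM in shEmpty and 0.262, 0.390 and 0.213 CPM in shKap1 (log2 change -5.84 ± 0.59, adjusted p = 6.4e-06). These related genes are expressed in the inner cell mass, and the Pramel7 protein is known to lower the level of the DNA methylation cofactor UHRF1 in ground-state ES cells. Reads that map to several paralogs of the family were discarded, which may lower their counts. Pgc, encoding the digestive protease precursor progastricsin, stood at 18.3, 14.5 and 16.7 CPM in shEmpty and 0.262, 0.520 and 0.373 CPM in shKap1 (log2 change -5.37 ± 0.29). Tcl1, a coactivator of the kinase AKT that is high in naive cells, stood at 74.1, 49.5 and 49.4 CPM in shEmpty and 3.30, 2.21 and 1.92 CPM in shKap1 (log2 change -4.54 ± 0.20), and C330046G13Rik at 12.6, 9.53 and 8.63 CPM in shEmpty and 0.210, 0.217 and 0.0533 CPM in shKap1 (log2 change -5.91 ± 0.35). The shKap1 libraries were all close to silent for Pramel7, Pramel6, Pgc and C330046G13Rik, and Tcl1 kept a low level. The log2 changes were -5.17 ± 0.55 for the cation channel gene Trpm1, -4.86 ± 0.19 for Gm13128, -4.68 ± 0.46 for the nicotinic receptor subunit Chrna4, -4.57 ± 0.25 for the keratin Krt42 and -4.54 ± 0.39 for the growth factor Fgf17. For Pramel6 and Pramel7, replicate 1 of shEmpty was well below the other libraries of its arm.

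**Figure D2:**
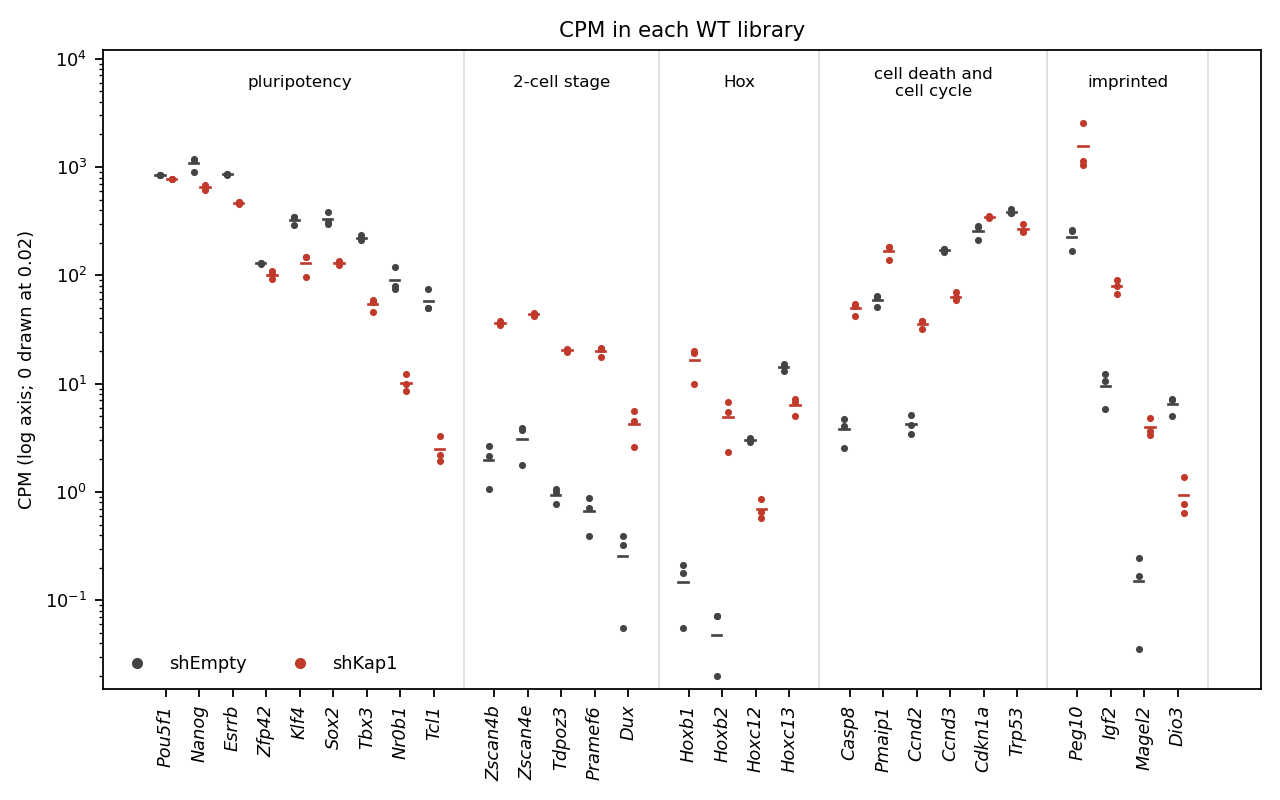
Level of selected genes in each of the 6 WT libraries in CPM (log axis, with a value of 0 drawn at 0.02), with 1 point per library in grey for shEmpty and red for shKap1 and a bar at the mean of 3 libraries. Pou5f1 stays near the same level in both arms, while the arms of Tcl1, Dux, Hoxb1, Casp8 and Peg10 do not overlap.

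No factor of naive pluripotency rose by the fold threshold, several fell, and the core list held changes both ways. Of the naive list, 0 of 24 tested members rose and 9 fell, with a median log2 change of -0.71. The share that fell was 37.5%, beside 6.54% of all genes tested, and 17 of its members had all shKap1 values below all shEmpty values, against 27.4% of all genes tested. In 3 members all shKap1 values lay above all shEmpty values, beside 27% of all genes tested. Fbxo15 (0.47 ± 0.05, adjusted p = 4.5e-07), Klf2 (0.42 ± 0.07, adjusted p = 3.8e-05) and Dppa2 (0.59 ± 0.14, adjusted p = 0.0028), named after their values were seen, were higher in shKap1 at less than 2-fold. In such bulk samples, fewer cells of a type and less RNA per cell cannot be told apart. Klf4, a reprogramming factor downstream of LIF, stood at 292, 342 and 342 CPM in the shEmpty libraries and 95.6, 147 and 148 CPM in the shKap1 libraries (log2 change -1.32 ± 0.15, adjusted p = 6.4e-06). Besides Tcl1 and Klf4, the falls were of Nr0b1 (-3.16 ± 0.23), a partner of Nanog and Oct4, Prdm14 (-2.83 ± 0.15), which represses FGF signalling and Dnmt3b, Tbx3 (-2.04 ± 0.08), Klf5 (-1.45 ± 0.11), Dppa5a (-1.38 ± 0.11), Sox15 (-1.35 ± 0.16) and Nr5a2 (-1.28 ± 0.08). Those of Prdm14, Klf5, Dppa5a, Sox15 and Nr5a2 were picked for mention after their values were seen. Nanog stood at 904, 1173 and 1180.3 CPM in the shEmpty libraries and 607, 678 and 658 CPM in the shKap1 libraries, without overlap and with an adjusted p of 1.9e-05, but at -0.75 ± 0.10 it stayed under the 2-fold threshold. Esrrb (-0.87 ± 0.06, adjusted p = 1.8e-09) and Zfp42, which encodes Rex1 (-0.36 ± 0.08, adjusted p = 0.001), were also under it.

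Of the core list, 2 of 17 tested members rose and 5 fell, with a median log2 change of -0.29. Sox2, the partner of Oct4 on DNA, fell with 380.2, 309 and 299 CPM in the shEmpty libraries and 134, 125 and 132 CPM in the shKap1 libraries (log2 change -1.34 ± 0.08, adjusted p = 9.1e-10), and its arms did not overlap. The falls also included that of the transcription factor Foxd3 (-1.89 ± 0.31) and, named after their values were seen, Sall1 (-1.22 ± 0.06) and the RNA-binding let-7 inhibitor Lin28a (-1.04 ± 0.32). The call of Lin28a was lost with the replicate block, at -0.99, and without shEmpty replicate 1 (-0.68), shKap1 replicate 2 (-0.96) or shKap1 replicate 3 (-0.96). The rises were of the adhesion protein gene Epcam (1.17 ± 0.15) and the fucosyltransferase Fut4 (2.37 ± 0.55), which makes the SSEA1 epitope. Genes of the formative and primed state did not move one way, as 4 of 16 tested members rose and 3 fell, with a median log2 change of 0.06. That median was 0.42 without shEmpty replicate 1 and -0.16 without shEmpty replicate 3. Fgf5, the usual marker of the primed epiblast, fell (log2 change -3.19 ± 0.70, adjusted p = 0.0011), with 0.666, 0.534 and 0.318 CPM in shEmpty and 0.0524, 0.0433 and 0.0533 CPM in shKap1, and so did Etv4 (-2.96 ± 0.15) and Dusp6 (-1.39 ± 0.47), which are targets of ERK signalling. Dusp6 lost its call without shEmpty replicate 1 (adjusted p = 0.12), shKap1 replicate 2 (0.094) or shKap1 replicate 3 (0.088). Wnt8a rose from 1.49 ± 0.502 to 47.6 ± 13 CPM (log2 change 5.04 ± 0.49), with 2.05, 1.32 and 1.10 CPM in shEmpty and 62.3, 42.3 and 38.1 CPM in shKap1, and Sox3 rose by 1.59 ± 0.20, as did Sfrp2 and Sox4, the last at under 2-fold without shEmpty replicate 1 (0.91) or shKap1 replicate 1 (0.89). Otx2, which drives exit to the formative state, had 1.06, 0.498 and 0.672 CPM in shEmpty and 3.36, 0.996 and 0.693 CPM in shKap1 (log2 change 1.22 ± 0.49, adjusted p = 0.053), and its adjusted p missed the threshold. With the replicate number as a block it was called, at 1.05 with an adjusted p of 0.0054, and the adjusted p was 0.0080 without shKap1 replicate 3, 0.024 without shKap1 replicate 2 and 0.046 without shEmpty replicate 1.

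Genes of the 2-cell embryo moved up almost throughout the list, in which 22 of 27 tested members rose and 1 fell, with a median log2 change of 2.85. The share that rose was 81.5%, beside 10.8% of all genes tested. The 1 fall was of Tbx3, which is also on the naive list. In 22 members all shKap1 values lay above all shEmpty values and in 4 below, beside 27% and 27.4% of all genes tested. The summed level of the list was 773 to 811 CPM in shEmpty and 1029 to 1061 CPM in shKap1. Dux stood at 0.0555, 0.320 and 0.389 CPM in the shEmpty libraries and 2.62, 4.50 and 5.60 CPM in the shKap1 libraries (log2 change 3.90 ± 0.38, adjusted p = 1.8e-07), so its highest shEmpty value was below its lowest shKap1 value. Its targets of the Zscan4 cluster, telomere-regulating genes of the 2-cell stage, rose in 6 of 6 members, and their summed level was 14.8 to 30.0 CPM in shEmpty and 279.6 to 308 CPM in shKap1. Zscan4b rose by 4.14 ± 0.28 and Zscan4e by 3.75 ± 0.35. All 4 Tdpoz genes tested rose, with Tdpoz3 at 0.777, 1.07 and 0.991 CPM in shEmpty and 19.4, 21 and 20.6 CPM in shKap1 (log2 change 4.39 ± 0.23) and Tdpoz1 at 2 and 69 reads over the arms, a ratio of 42.1 (11.2 to 355). The rise of Tdpoz2, named after its values were seen, was lost by DESeq2, with the WT libraries alone and without shEmpty replicate 2 or 3 or shKap1 replicate 1 or 2, which left 3 of 4. Pramef6 rose from 0.662 ± 0.252 to 20.0 ± 2.06 CPM (log2 change 4.84 ± 0.24). Zfp352, another 2-cell transcript, rose by 2.90 ± 0.35, a value named after it was seen. Members of the Zscan4, Tdpoz, Pramel and Dub families are near-identical copies. Reads that map to several of them were discarded, so the level of each copy is uncertain. Of the 40 listed genes, 27 were tested, and a gene silent in shEmpty could reach the read filter through the other libraries alone.

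Trophoblast genes, which mark the lineage that forms the placenta, rose in 11 of 25 tested members (44.0%) and fell in 4 (16%), beside 10.8% and 6.54% of all genes tested, with a median log2 change of 0.39. The rises included Peg10 (2.79 ± 0.31), Ascl2 (2.50 ± 0.30), Rhox9 (2.35 ± 0.38) and Krt7 (1.60 ± 0.26), and the falls Elf5 (-3.42 ± 1.10), the gatekeeper of the trophoblast fate, Ets2 (-1.32 ± 0.11) and the galectin Lgals3 (-1.23 ± 0.28). Peg10, a retrotransposon-derived imprinted gene, stood at 166, 255 and 264 CPM in the shEmpty libraries and 2541, 1134 and 1051 CPM in the shKap1 libraries. The summed level of the list was 372 to 518 CPM in shEmpty and 1247 to 2741 CPM in shKap1, most of the latter from Peg10. Replicate 1 of shKap1 was the highest for Peg10, far above the other libraries of its arm. Without shKap1 replicate 1, 7 members rose in place of 11, and the same number without both replicate 1 libraries. Without shKap1 replicate 3, 2 members fell in place of 4. The adjusted p of Elf5 was 0.073 without shKap1 replicate 2 and 0.059 without shKap1 replicate 3. Cdx2, the trophectoderm regulator, was at 1.17, 1.67 and 1.63 CPM in shEmpty and 1.47, 1.47 and 1.28 CPM in shKap1 (log2 change -0.10 ± 0.22, adjusted p = 0.75). The placental lactogen and spongiotrophoblast genes Prl2c2, Prl3b1, Prl3d1 and Tpbpa were under the read filter.

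Primitive endoderm genes went both ways, since 7 of 27 tested members rose and 7 fell, with a median log2 change of 0.12, and their summed level was 1952 to 2101 CPM in shEmpty and 850.3 to 892 CPM in shKap1. The median was 0.32 without shEmpty replicate 1 and 0.0023 without shEmpty replicate 2. The nuclear receptor Hnf4a fell with 1.11, 2.35 and 2.44 CPM in shEmpty and 0, 0.130 and 0.0533 CPM in shKap1 (log2 change -4.84 ± 0.50, adjusted p = 5.9e-07), and the laminin chain Lama1 fell from 83.6 ± 13.1 to 11.4 ± 0.725 CPM (log2 change -2.87 ± 0.11). Sox17, a determinant of endoderm, rose (2.21 ± 0.37), as did Stra6 (2.55 ± 0.32), the receptor for retinol-binding protein. Sox7 (-2.31 ± 0.42), Apoe (-2.15 ± 0.13), Dab2 (-1.84 ± 0.31) and Lamc1 (-1.81 ± 0.12) fell, values named after they were seen. Of the 7 rises only Sox17 and Stra6 are named here, so the named genes lean to falls while the calls were equal in number. The lineage regulators Gata6 (0.611, 0.356 and 0.778 CPM in shEmpty and 0.419, 0.476 and 0.533 CPM in shKap1, log2 change -0.28 ± 0.34, adjusted p = 0.54) and Gata4 (0.69 ± 0.26, adjusted p = 0.040) were not called.

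As in the lists above, the shares over all genes tested, 10.8% risen and 6.54% fallen, are the background of the counts that follow. Of the mesoderm and primitive streak genes, 4 of 21 tested members rose and 4 fell, with a median log2 change of -0.35. Snai2 (2.37 ± 0.28) and Mesp2 (1.51 ± 0.40) rose, and Gsc (-2.56 ± 0.35), a marker of the organizer, and Kdr (-1.83 ± 0.39), the VEGF receptor, fell. Brachyury, T, had 4.05, 3.10 and 1.70 CPM in shEmpty and 1.57, 1.21 and 1.44 CPM in shKap1 (log2 change -1.04 ± 0.27, adjusted p = 0.0043), and this fall was under 2-fold without shEmpty replicate 1 (-0.77), shEmpty replicate 2 (-0.99) or shKap1 replicate 2 (-0.93). In the neuroectoderm list, 7 of 20 tested members rose and 4 fell, with a median log2 change of 0.36. This median was 0.60 without shEmpty replicate 1 and 0.15 without shEmpty replicate 2. The neural transcription factors Pax6 (1.16 to 7.61 CPM, 2.77 ± 0.41) and Neurog1 (0.184 to 1.52 CPM, 2.89 ± 0.41) rose from low levels, while the neuronal cytoskeletal genes Tubb3 (-1.57 ± 0.23) and Stmn2 (-1.69 ± 0.20) fell. Germline genes showed 9 rises and 7 falls among 37 tested, with a median of 0.12. Tdrkh, of the piRNA pathway, rose by 3.53 ± 0.24 and Dpep3 by 2.01 ± 0.33, Tex19.1 fell (-1.61 ± 0.08) and so did the testis tubulin Tuba3a (-1.49 ± 0.14), and the germ cell RNA-binding gene Dazl was at 17.2, 21.2 and 25.6 CPM in shEmpty and 10.4, 14.1 and 14.2 CPM in shKap1 (log2 change -0.73 ± 0.19, adjusted p = 0.0061).

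Hox genes, the clustered homeobox genes that pattern the body axis and are held silent by polycomb in ES cells, rose in 11 of 39 tested members (28.2%) and fell in 2 (5.13%), beside 10.8% and 6.54% of all genes tested. Without 1 library the rises numbered 8 to 15, and the falls 4 without shKap1 replicate 2 and 3 without shEmpty replicate 1. The rises were led by the anterior end of the Hoxb cluster on chromosome 11. Hoxb1 had 0.0555, 0.178 and 0.212 CPM in the shEmpty libraries and 9.86, 20.0 and 19.24 CPM in the shKap1 libraries (log2 change 6.63 ± 0.37, adjusted p = 3.7e-10). Hoxb2 had 0, 0.0712 and 0.0708 CPM in shEmpty and 2.36, 5.41 and 6.82 CPM in shKap1 (log2 change 6.37 ± 0.76), and its neighbours Hoxb3 and Hoxb4, named after their values were seen, changed by 5.02 ± 0.73 and 2.06 ± 0.39. No shEmpty library reached a shKap1 library for Hoxb1 and Hoxb2. Hoxc12 (-2.13 ± 0.23) and Hoxc13 (-1.18 ± 0.18), at the posterior end of the Hoxc cluster, fell. The genes of the polycomb complexes themselves showed 1 rise, of Phc2 (1.2 ± 0.07), and no fall among 34 tested, with a median of -0.15. Without shEmpty replicate 2 or 3 or shKap1 replicate 1 the polycomb rises numbered 2, and without shEmpty replicate 1 or shKap1 replicate 2 there was 1 fall.

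Imprinted genes, expressed from 1 parental allele under germline DNA methylation that KAP1 and ZFP57 protect, rose in 16 of 51 tested members (31.4%) and fell in 3 (5.88%), beside 10.8% and 6.54% of all genes tested, with a median log2 change of 0.40. Magel2 rose from 0.150 ± 0.107 to 3.94 ± 0.733 CPM (log2 change 4.68 ± 0.35), and the fetal growth factor gene Igf2 rose from 9.61 ± 3.39 to 79.4 ± 11.9 CPM (log2 change 3.02 ± 0.23, adjusted p = 2.4e-07), with 5.83, 10.6 and 12.4 CPM in shEmpty and 91.3, 79.3 and 67.5 CPM in shKap1. H19, which shares its imprinting control region with Igf2, rose by 2.47 ± 0.22, so both genes of this pair rose. H19 and the following genes were named after their values were seen. Airn, the antisense transcript of Igf2r, had 1 read in shEmpty and 35 in shKap1, a ratio of 42.7 (7.18 to 1735). Sgce (2.10 ± 0.22), which neighbours Peg10, Peg3 (1.17 ± 0.10) with its neighbour Zim1 (1.17 ± 0.37), and Dlk1 (1.16 ± 0.29) and Meg3 (1.10 ± 0.11), of opposite parental origin in 1 cluster, rose as well. Dio3 of the same cluster fell (-2.81 ± 0.21), as did Nespas (-1.11 ± 0.19) and Kcnq1 (-3.16 ± 1.07). The change of Nespas was -0.99 without shKap1 replicate 1. The adjusted p of Kcnq1 was 0.066 without shEmpty replicate 2, 0.10 without shKap1 replicate 2, 0.084 without shKap1 replicate 3 and 0.13 by DESeq2, and that of Zim1 0.075 without shEmpty replicate 2 and 0.077 without shKap1 replicate 2. Counts by gene do not tell the alleles apart. The summed level of the list was 4056 to 4118 CPM in shEmpty and 6114 to 7785 CPM in shKap1, the latter including the high Peg10 values given above.

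Of 29 genes of the KAP1 complex and H3K9 methylation, Zfp809 (1.53 ± 0.11), the zinc finger protein that recognises the primer binding site of murine leukaemia virus, and Suv39h1 (1.21 ± 0.11) rose and Trim28 alone fell, so that 6.90% rose and 3.45% fell, beside 10.8% and 6.54% of all genes tested. In 16 of the 29 all shKap1 values lay below all shEmpty values, against 27.4% of all genes tested, and by adjusted p alone 7 rose and 14 fell. Setdb1 (218 to 178 CPM, -0.29 ± 0.08) and the imprint-protecting Zfp57 (839.7 to 699 CPM, -0.26 ± 0.10) were under the fold threshold. In the DNA methylation and TET list, Gadd45g (3.25 ± 0.32), Tet3 (1.80 ± 0.14), the methyl-binding protein gene Mbd1 (1.49 ± 0.10) and the de novo methyltransferase Dnmt3a (1.15 ± 0.13) rose, and only Pramel6 and Pramel7 fell, of 21 tested, so that 19% rose and 9.52% fell. Pramel6 and Pramel7 are also among the 10 largest falls, and the lists were chosen with earlier results of these data known. The share of falls in this list rests on these genes and is a description. Without both replicate 1 libraries the change of Dnmt3a was 0.85. Uhrf1, which Pramel7 is known to act on at the protein level, stood at 909.9, 888 and 877 CPM in shEmpty and 436, 461 and 454 CPM in shKap1 (log2 change -0.99 ± 0.05, adjusted p = 7.2e-11), just under the 2-fold threshold. The log2 changes were -0.21 ± 0.04 for the maintenance enzyme Dnmt1, -0.51 ± 0.19 for Dnmt3b, -0.37 ± 0.65 for its cofactor Dnmt3l, -0.08 ± 0.11 for Tet1 and 0.16 ± 0.09 for Tet2, none of which was called. The genes named Zfp or Zkscan, many of them KRAB zinc finger genes, rose in 47 of 386 cases (12.2%), beside 10.8% of all genes, and fell in 3 (0.777%), beside 6.54%. Of these genes 183 had all shKap1 values above all shEmpty values, against 27% of all genes tested, and by adjusted p alone 169 rose and 48 fell, where 4672 and 4605 of all 20321 genes did. Without shEmpty replicate 1 the falls numbered 1.

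Genes of the interferon response and of nucleic acid sensing rose in 8 (20.0%) and fell in 3 (7.5%) of 40 tested, beside 10.8% and 6.54% of all genes tested, with a median of 0.30. Psmb8, a subunit of the immunoproteasome, had 0.111, 0.142 and 0.0708 CPM in the shEmpty libraries and 3.83, 3.03 and 3.04 CPM in the shKap1 libraries (log2 change 4.87 ± 0.54, adjusted p = 1.0e-06), without overlap. Oasl2 (3.97 ± 0.45) rose, while its relatives Oas1a (-3.63 ± 0.24) and Oasl1 (-1.96 ± 0.31) fell. The double-stranded RNA sensors Ifih1 (2.62 ± 0.47) and Tlr3 (1.43 ± 0.55) and the effectors Mx1 (2.10 ± 0.56) and Isg15 (1.73 ± 0.42) rose, values named after they were seen. The adjusted p of Tlr3 was 0.091 to 0.15 without shEmpty replicate 2 or 3 or shKap1 replicate 1 or 3. The summed level of the list was 993 to 1029 CPM in shEmpty and 908 to 918 CPM in shKap1. Of 15 genes that restrict retroelements, 3 rose, namely Trim30a with its relative Trim5 (3.39 ± 0.18) and Fv1 (1.57 ± 0.17), a capsid-binding factor derived from a retroviral gag gene, and Tex19.1 fell. The median log2 change of that list was -0.41, and 9 of the 15 had all shKap1 values below all shEmpty values, beside 27.4% of all genes tested. By adjusted p alone, without the fold threshold, 3 rose and 8 fell.

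Cell death genes showed 6 rises (18.2%) and no fall among 33 tested, beside 10.8% and 6.54% of all genes tested. The study reports that cells given the Kap1 hairpin were already dying at this time. Casp8, the initiator caspase of death receptors, had 2.55, 4.09 and 4.74 CPM in the shEmpty libraries and 42.0, 54.9 and 51.5 CPM in the shKap1 libraries (log2 change 3.67 ± 0.29, adjusted p = 3.8e-07) and rose in every shKap1 library above every shEmpty library. Casp1, the inflammatory caspase, had no read in shEmpty and 0.629, 1.04 and 1.39 CPM in shKap1, at least 25.2-fold higher. Cflar (2.57 ± 0.14), an inhibitor of caspase 8, Bik (2.66 ± 0.36), Ripk3 (1.29 ± 0.10) and Bcl2 (1.11 ± 0.40) rose too, values named after they were seen, so promoters and inhibitors of death were both among them. The call of Bcl2 was lost by DESeq2 (adjusted p = 0.078) and without any 1 WT library other than shKap1 replicate 3, with adjusted p-values of 0.050 to 0.16. Of 33 p53 targets 4 rose (12.1%, beside 10.8% of all genes), among them the BH3-only gene Pmaip1 (1.48 ± 0.18) and Ddit4l (1.29 ± 0.12), and Perp fell (-1.12 ± 0.13), with a median of 0.08. In 16 of them all shKap1 values lay above all shEmpty values, against 27% of all genes tested, by adjusted p alone 13 rose and 7 fell, and the summed level was 3746 to 3816 CPM in shEmpty and 4186 to 4252 CPM in shKap1. Trp53 itself (-0.53 ± 0.08), the cell cycle inhibitor Cdkn1a (259 to 344 CPM, 0.41 ± 0.10) and Mdm2 (0.03 ± 0.05), the classical targets, were not called.

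Of 45 cell cycle and replication genes, 2 rose and 2 fell, yet 31 had all shKap1 values below all shEmpty values, with a median log2 change of -0.33 and a summed level of 9479 to 10020.5 CPM in shEmpty and 7467 to 7545 CPM in shKap1. Such separation was seen for 27.4% of all genes tested. Cyclin D2 (Ccnd2) rose from 4.23 ± 0.833 to 35.8 ± 3.6 CPM (log2 change 3.10 ± 0.17, adjusted p = 1.2e-10) while cyclin D3 (Ccnd3) fell from 172 ± 6.27 to 63.6 ± 5.49 CPM (log2 change -1.44 ± 0.08, adjusted p = 3.5e-10). Cdkn1c, an imprinted inhibitor of cyclin-dependent kinases, rose (1.39 ± 0.46) and Myc fell (-2.16 ± 0.76). The adjusted p of Cdkn1c was 0.19, with a change of 0.55, without shKap1 replicate 1, and 0.086 and 0.074 without shEmpty replicates 2 and 3. That of Myc was 0.071 to 0.12 without shEmpty replicate 1 or any 1 shKap1 library. The proliferation marker Mki67 had means of 415 CPM in shEmpty and 473 CPM in shKap1 (0.19 ± 0.06). Among 30 genes of the unfolded protein and integrated stress responses, Ddit4 (1.39 ± 0.21) and Atf3 (1.05 ± 0.20) rose and Sdf2l1 (-1.16 ± 0.10) fell, and among 25 heat shock and oxidative stress genes the paralogs Hspa1a (1.2 ± 0.22) and Hspa1b (1.06 ± 0.17) rose and Gsta4 (-1.04 ± 0.07) fell. Without shEmpty replicate 1 the changes of Atf3 (0.80), Hspa1b (0.95) and Gsta4 (-0.98) were under 2-fold, as was that of Gsta4 without shKap1 replicate 2 (-0.96) or 3 (-0.99). The falls numbered 2 in the unfolded protein list without shEmpty replicate 1 or shKap1 replicate 3, and 2 in the heat shock list without shKap1 replicate 1.

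In the LIF, WNT and FGF-ERK list 10 of 43 fell (23.3%) and 4 rose (9.30%), beside 6.54% and 10.8% of all genes tested, with a median of -0.30, and without shKap1 replicate 2 the falls numbered 5. Wnt11 (-3.01 ± 0.44) and the ERK-responsive transcription factor Etv4, with 93.9, 84.5 and 81.8 CPM in shEmpty and 11.9, 10.5 and 11.1 CPM in shKap1, fell, together with the ERK feedback inhibitor Spry2 (-1.57 ± 0.11) and the receptors Fgfr3 (-1.60 ± 0.40) and Fgfr4 (-1.57 ± 0.20), the last 3 named after their values were seen. The medium of both arms holds a MEK inhibitor. Jun rose from 9.63 ± 1.04 to 42.8 ± 1.40 CPM (2.15 ± 0.09) and the ERK phosphatase Dusp5 by 1.76 ± 0.15. Unlike Fgfr3 and Fgfr4, the receptor gene Fgfr2, named after its values were seen, rose (1.24, adjusted p = 0.015). Its call was lost with the WT libraries alone and without shEmpty replicate 2 or 3 or shKap1 replicate 1. Of 34 NODAL and BMP genes none rose and 5 (14.7%) fell, Bmp4 (-2.34 ± 0.35), Lefty2 (-1.97 ± 0.67), Smad7 (-1.56 ± 0.07), Id4 (-1.34 ± 0.30) and Nodal (-1.10 ± 0.10). Bmp4, a ligand that supports self-renewal through Id genes, stood at 12.1, 8.40 and 7.40 CPM in shEmpty and 1.05, 2.04 and 2.35 CPM in shKap1. The change of Id4 was -0.97 without shEmpty replicate 1. The adjusted p of Lefty2 was 0.068 to 0.12 without shEmpty replicate 1 or 2 or shKap1 replicate 2 or 3.

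Genes of the epithelial and mesenchymal states rose in 8 of 28 cases (28.6%) and fell in none, beside 10.8% and 6.54% of all genes tested. The list holds genes of both states, so this count gives no direction between them. Its summed level was 4025 to 4362 CPM in shEmpty and 4037 to 4275 CPM in shKap1. Zeb2 (0.653 to 5.24 CPM, 2.98 ± 0.35) and Snai2 (0.646 to 3.21 CPM, 2.37 ± 0.28), repressors of E-cadherin, rose at low levels, together with the intermediate filament gene Vim (1.12 ± 0.38), whose adjusted p was 0.11 without shEmpty replicate 2 or 3 and 0.13 without shKap1 replicate 1. The E-cadherin gene Cdh1 was at 1055, 1422 and 1443 CPM in shEmpty and 970.4, 1361 and 1344 CPM in shKap1 (log2 change -0.09 ± 0.15, adjusted p = 0.66). Collagens rose in 11 (28.2%) and fell in 6 (15.4%) of 39, serpins in 9 (30.0%) and 5 (16.7%) of 30, and matrix metalloproteinases in 4 (23.5%) and 1 (5.88%) of 17, while solute carriers rose in 34 and fell in 34 of 308 (11% each). The families list 67 serpins and 23 metalloproteinases, and of those tested 17 and 12 reached 1 CPM. A member silent in shEmpty passes the read filter mainly through libraries in which it is high. The shares of these 2 families are therefore not comparable with the background. The 1 metalloproteinase fall was lost without shEmpty replicate 3 or shKap1 replicate 1.

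Housekeeping lists differed in their share of calls, which over all genes tested was 10.8% risen and 6.54% fallen. Of 83 cytosolic ribosomal protein genes 1 rose, the testis-type paralog Rpl39l (2.78 ± 0.09), and of 91 nuclear genes of oxidative phosphorylation 2 rose and 3 fell. Among 26 glycolysis genes 4 rose (15.4%), led by Bnip3 (2.22 ± 0.17), a mitophagy receptor, and the muscle isoform Fbp2 (2.03 ± 0.17), and the glucose transporter Slc2a3 fell (-1.13 ± 0.26). Among these rises was Pdk1 (1.03), named after its values were seen. It lost its call without any 1 WT library, with adjusted p-values of 0.055 to 0.10 by edgeR. In the glycolysis list 11 members had a positive and 15 a negative log2 change, with a median of -0.07. The summed level of that list was 7139 to 7512 CPM in shEmpty and 5853 to 6073 CPM in shKap1. In 23 cholesterol genes there was 1 fall, of the efflux pump Abca1 (-1.13 ± 0.09), and of 23 lysosome and autophagy genes Ctsh rose and Gpnmb (-3.35 ± 0.20), Hexa (-1.35 ± 0.10) and Mitf (-1.24 ± 0.13) fell (13%). Gapdh had means of 30.5 CPM in shEmpty and 22.5 CPM in shKap1 (-0.44 ± 0.11), from uniquely mapped reads only. Replication-dependent histones rose in 2 of 59 cases, with 0 without shEmpty replicate 3 and 1 without shEmpty replicate 2 or any 1 shKap1 library. Only 5 of the 59 reached 1 CPM. Mitochondrial genome genes rose in 2 of 24, with 0 without shKap1 replicate 1 and 1 without shEmpty replicate 1 or 3. These rises were of the tRNA genes mt-Ta and mt-Tp. The libraries were made with an mRNA kit, and how well it captures histone or tRNA transcripts was not tested. The 2 rises of oxidative phosphorylation became 1 without shEmpty replicate 2 or 3 or shKap1 replicate 1 or 3.

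Of 1251 olfactory receptor genes listed, 38 had enough reads to test, of which 17 (44.7%) rose and 2 fell, although only 3 reached 1 CPM. That share is not comparable with the background, because a receptor passes the read filter mainly through the libraries in which it is high. Keratins rose in 2 and fell in 4 of 21 tested, out of 51 listed. Clustered protocadherins rose in 3 of 8 tested, out of 25 listed. Only 3 of them reached 1 CPM, so the same limit of the filter applies. Their rises numbered 2 by DESeq2, by limma-voom, with the WT libraries alone and without shEmpty replicate 1 or 2. In each of these settings Pcdhb19, named after its values were seen, lost its call. Markers of other cell types had median log2 changes of -0.05 for fibroblast, -0.73 for blood, -0.60 for endothelium, -0.51 for muscle and -0.45 for liver and gut, beside -0.01 over all genes tested. Of the fibroblast markers 2 of 10 tested rose and 2 fell, with a summed level of 22.1 to 30.4 CPM in shEmpty and 25.8 to 31.5 CPM in shKap1. Of the blood markers 1 of 6 rose and 1 fell (31.0 to 32.3 CPM in shEmpty and 21.2 to 35.8 CPM in shKap1), and Ptprc and the globins Hba-x, Hbb-b1 and Hbb-bh1 were under the filter. Endothelial markers rose in 1 of 10 and fell in 3 (201 to 246 CPM in shEmpty and 119.6 to 133 CPM in shKap1), muscle markers fell in 3 of 11 (181 to 206 CPM in shEmpty and 197 to 224 CPM in shKap1), with Myod1 and Myf5 under the filter, and liver and gut markers rose in 1 and fell in 1 of 7 (61.0 to 127 CPM in shEmpty and 53.8 to 74.4 CPM in shKap1), with Afp, Alb and Ttr under it. Without 1 library these counts moved by at most 1, but the medians were less stable. The fibroblast median was 0.82 without shEmpty replicate 2 and -0.19 without shEmpty replicate 1. That of blood was -0.29 without shEmpty replicate 1 and -1.27 without shEmpty replicate 3, and that of muscle -0.16 without shEmpty replicate 3. The part of such cells in the results above was not tested.

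**Figure D3:**
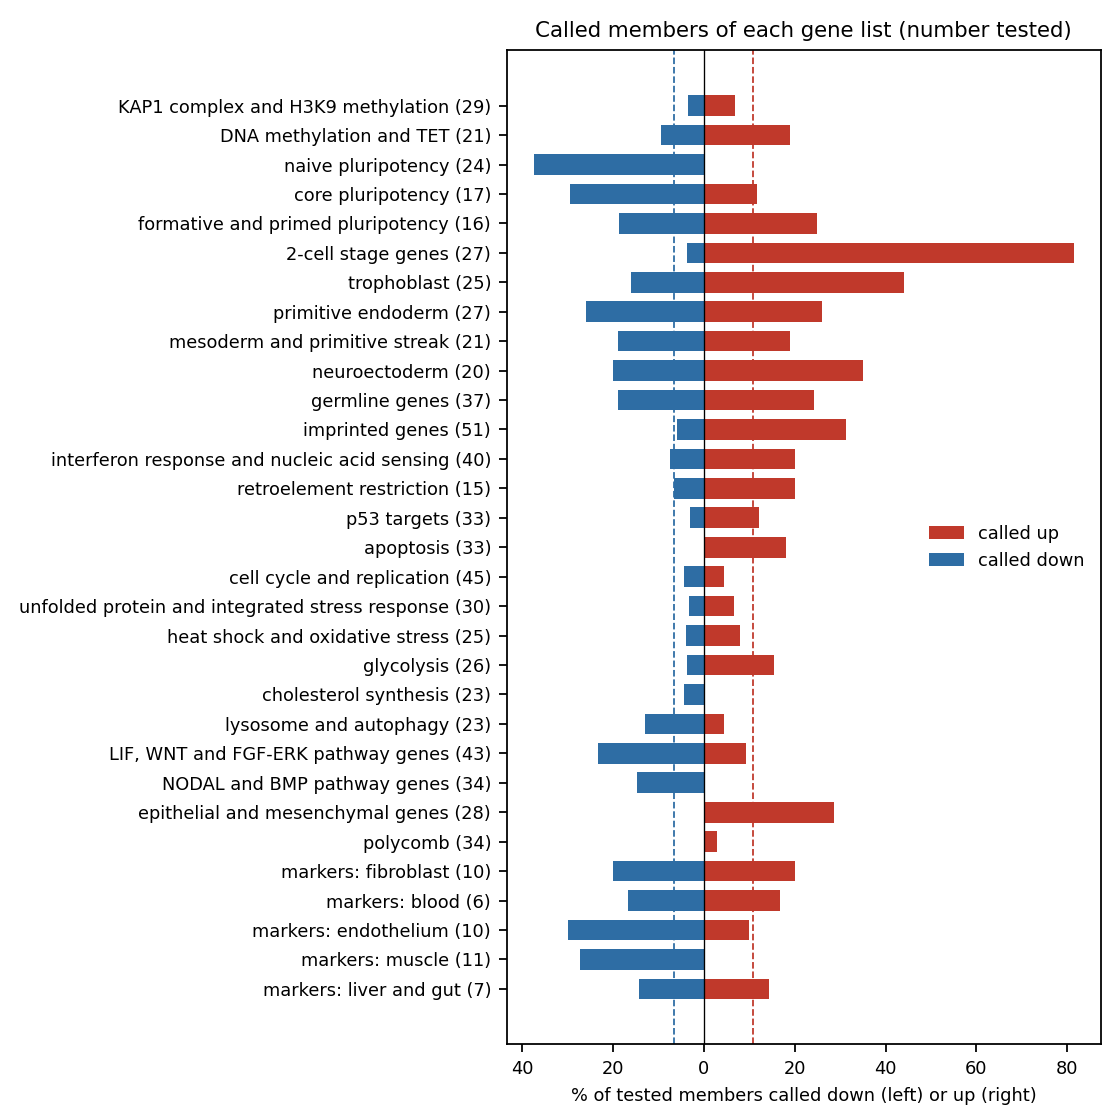
Percentage of tested members that rose (red bars, to the right) and fell (blue bars, to the left) in each of 31 gene lists, with the number tested in brackets and the shares over all genes tested (10.8% and 6.54%) as dashed lines. The 2-cell list reaches furthest to the right, at 81.5%, and the naive pluripotency list shows falls without rises.

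Chromatin at gene starts was read from the deposited region sets of WT cells, which are independent of the RNA counts. A KAP1 region lay within 1 kb of the start in 6.0% of risen genes (95% exact binomial interval 5.04 to 7.08), in 4.3% of genes with no call (4.00 to 4.62) and in 3.01% of fallen genes (2.16 to 4.08). KAP1-dependent H3K9me3 was there in 4.00% (3.22 to 4.91), 0.679% (0.560 to 0.815) and 0.451% (0.166 to 0.980). For both features the interval of the risen genes lay above that of the genes with no call. Read the other way, 208 tested genes had KAP1-dependent H3K9me3 at the start, and 88 of them (42.3%) rose and 6 fell. Of 894 with a KAP1 region there, 132 (14.8%) rose and 40 fell. Most risen genes thus had no such region within 1 kb of the start. The median distance to the nearest KAP1 region was 36198 bp for risen genes, 52874 bp for genes with no call and 60707 bp for fallen genes. Neighbouring genes are not independent, and the intervals do not allow for that.

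Marks of active and of polycomb chromatin were at different shares of the responding genes and of the rest. H3K4me3, the mark of active and poised promoters, was within 1 kb of 50.9% of risen starts (48.8 to 53), 72.1% of starts with no call (71.4 to 72.7) and 64.4% of fallen starts (61.8 to 67.0). H3K27me3, the mark of polycomb, was at 29.4% of risen starts (27.5 to 31.3), 29.4% of fallen starts (27 to 32) and 13.1% of the others (12.6 to 13.6), and both marks together, the bivalent state, were at 23.7%, 25.2% and 10.9%. The intervals of the responding genes did not reach those of the others for either mark. The groups differ in level, and among genes at 1 CPM or more the H3K27me3 shares of risen, fallen and other genes were 32.2%, 28.8% and 9.68%. Starts that lay inside an annotated LTR element were 4.23% (3.43 to 5.15) of the risen genes, 1.27% of those with no call and 1.88% of the fallen, and of the 332 such genes 93 (28.0%) rose. Another risen gene was within 50 kb for 26% of the risen genes, 11.4% of those with no call and 6.17% of the fallen, and another fallen gene for 25.8% of the fallen, 11.4% of those with no call and 3.59% of the risen. Genes with overlapping annotation were not removed from this count.

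**Figure D4:**
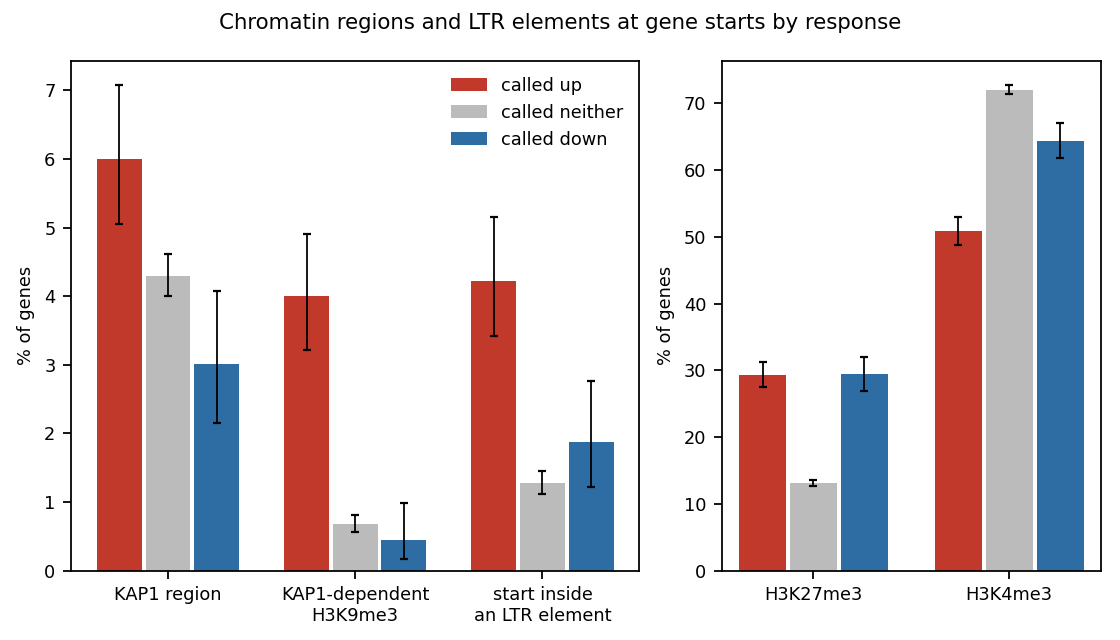
Percentage of genes (vertical axes, of different range) with each region type within 1 kb of the start, or with the start inside an LTR element, for genes that rose (red), did neither (grey) or fell (blue) on knockdown, with 95% exact binomial intervals as error bars. KAP1-dependent H3K9me3 stands highest in the risen genes at 4.00%, and H3K27me3 is equal in risen and fallen genes at 29.4%.

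As background, repeat families stood higher in shKap1 to different degrees, with values given here without a test. IAPEz proviruses went from 94.9, 104 and 113 to 4587, 5686 and 5555 reads scaled to the gene reads in the manner of CPM, without overlap. MERVL with its LTR MT2_Mm, which 2-cell embryos transcribe, went from 462 ± 59.7 to 2839 ± 347 and MMERVK10C from 81.4 ± 5.28 to 1197 ± 43.4, while ETn went from 2082 ± 107 to 5437 ± 133, L1Md from 3294 ± 236 to 4620.3 ± 41.6, and all LINE, SINE, LTR and DNA elements together from 50648 ± 805 to 69638 ± 2205.

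The WT response was compared with that of the other lines by the difference of the knockdown effects in the same edgeR fit. Over all genes, 946 (4.66%) had a higher and 504 (2.48%) a lower effect in DNMT TKO than in WT at 2-fold or more (7.14% in all), and 423 (2.08%) and 432 (2.13%) in TET TKO (4.21% in all). Of 53 genes looked at in both, 15 differed in DNMT TKO and 9 in TET TKO. The 20 largest changes among them were chosen on the WT change, which enters the difference, so their values are a description. Ctsh rose in WT but had 0.343 and 0.261 CPM in DNMT TKO and 0.257 and 0.239 CPM in TET TKO without and with knockdown. All 10 largest falls were smaller in DNMT TKO and 7 of them in TET TKO. For the genes fixed whatever their change, the knockdown effect was lower in DNMT TKO for Cdx2, which had means of 5.83 and 1.05 CPM there without and with knockdown and was not called in WT (difference -2.37 ± 0.30, adjusted p = 2.3e-05), and for Zfp42, also not called in WT (-1.17 ± 0.11, adjusted p = 8.4e-07) and T (-1.25 ± 0.37, adjusted p = 0.023). Trim28 itself was lowered less there, from 1869 to 427 CPM (difference 1.28 ± 0.21, adjusted p = 8.0e-04), and its part in the other differences was not tested. No difference was called for Pou5f1, Nanog, Sox2, Klf4 or Dux in either line. With n = 2 per hairpin in TET TKO, a missing call does not show that the responses were equal. The study reports a stronger induction of Dux in TET TKO cells than in WT. In DNMT TKO the adjusted p of 2.0e-04 for Sox2 was below the threshold with a difference of 0.75 ± 0.12, under 2-fold, and that of Pou5f1 was 0.8.

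**Figure D5:**
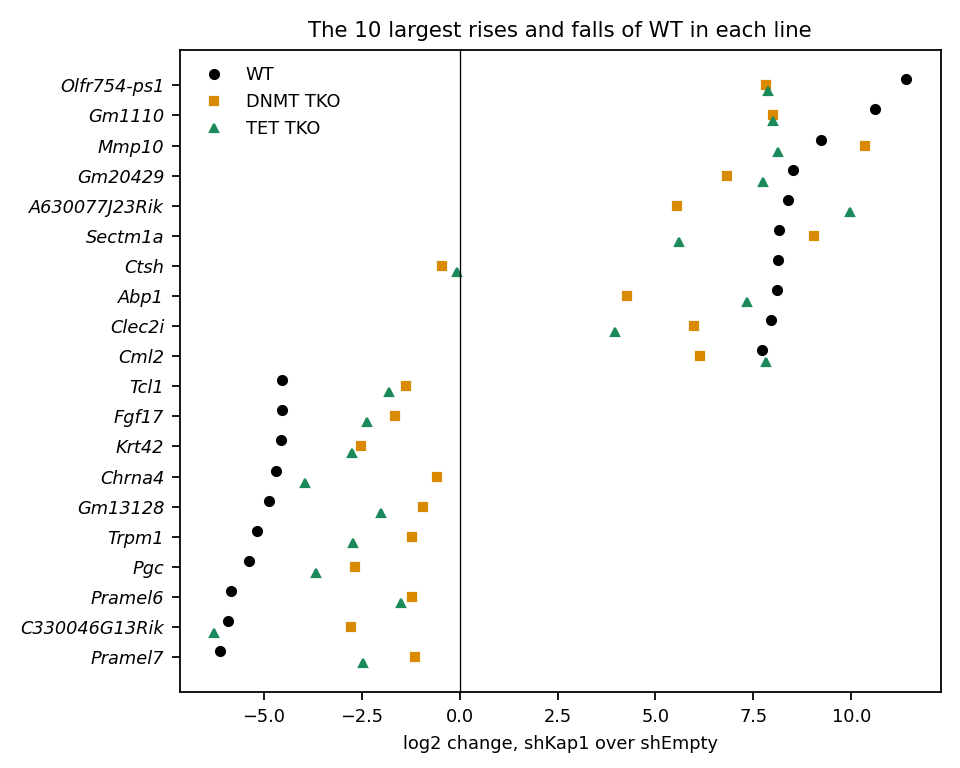
Log2 change on Kap1 knockdown (horizontal axis) of the 10 largest rises and 10 largest falls of WT (1 line per gene) in WT (black circles), DNMT TKO (orange squares) and TET TKO (green triangles) cells, drawn without error bars. Ctsh changes in WT alone, and Pramel7 and Tcl1 have smaller changes in both mutant lines. Changes of genes with few reads depend on the small count that the fit adds.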

How the data were processed

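RNA was measured in 16 single-end 100 bp libraries of a stranded mRNA kit, 6 of them WT. Per the study's methods, the authors aligned reads to mm9 with HISAT2, kept unique reads and counted them over exons, reverse-stranded, with featureCounts. The submitters' processing notes name HISAT2 2.0.1 and featureCounts 1.5.1. A column name in the tables is one that TopHat uses. The deposited values are raw read counts per gene and, from bedtools multicov over a merged repeat track, per repeat element. Reads that map to several places were discarded, which lowers the counts of genes with near-identical copies.

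All genes that reached 16 reads summed over the RNA libraries were fitted in 6 groups with edgeR 4.0.16 (R 4.3.3; TMM scaling, robust quasi-likelihood F test, Benjamini-Hochberg adjustment per contrast). Genes were called at a 2-fold change with adjusted p under 0.05. The SE is the log2 change over the square root of F. The replicates come from independent experiments by the study's methods. Same-numbered WT libraries deviated together over genes (correlations 0.46, 0.27 and 0.29), each above the 0.1 set for treating the numbers as pairs. The crossed correlations of replicates 2 and 3 were as high (0.28 and 0.29), so the values set only replicate 1 apart, and the labels do not say what a number marks. Alternatives were RLE and upper quartile scaling, 2 other filters, DESeq2 1.42.0, limma-voom (limma 3.58.1), the WT libraries alone, the replicate block, no fold threshold, each WT library left out and, chosen after seeing the data, both replicate 1 libraries left out. The scripts were tested on simulated data.

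Named genes were Trim28, the 10 largest rises and falls with at least 5 CPM in the higher group and no overlap, the 2 largest called rises and falls at 1 CPM or more of each of 31 lists and 17 families, and a fixed set of markers. The members and lists were chosen with earlier results of these data known. Gene symbols, starts and the sequences are from GENCODE M1 and NCBIM37, with 37205 of 37991 gene IDs matched. KAP1, H3K9me3, H3K4me3 and H3K27me3 regions are the deposited sets, taken without their read counts. CPM values, intervals and the floor of 3 reads cover these libraries, and the intervals on reads and shares cover counting error only. The hMeDIP libraries and single peak lists were not used here, and some genes that the naming rule gives are not reported here.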

Additional observations from a re-analysis of the deposited data

Results flagged for a closer look

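Of 53 genes looked at in all lines, 15 had a knockdown effect that differed between DNMT TKO and WT and 9 one that differed between TET TKO and WT, by the interaction term of the edgeR fit with Benjamini-Hochberg adjustment over all genes. Differences are log2 of the effect in the mutant line minus that in WT, so a positive value for a gene that fell in WT means a smaller fall in the mutant line. Over all genes tested, 7.14% differed in DNMT TKO and 4.21% in TET TKO. Both comparisons share the WT libraries. The genes with the largest WT changes were chosen on a value that enters the difference, so the counts of 15 and 9 are a description.

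In DNMT TKO, all 10 of the largest WT falls were smaller, with differences for C330046G13Rik (3.14 ± 0.49, adjusted p = 2.1e-04), Chrna4 (4.10 ± 0.67, adjusted p = 4.2e-04), Fgf17 (2.88 ± 0.55, adjusted p = 0.0012), Gm13128 (3.93 ± 0.23, adjusted p = 4.3e-09), Krt42 (2.06 ± 0.39, adjusted p = 0.001), Pgc (2.70 ± 0.41, adjusted p = 1.6e-04), Pramel6 (4.63 ± 0.73, adjusted p = 9.7e-04), Pramel7 (4.98 ± 0.61, adjusted p = 7.2e-05), Tcl1 (3.16 ± 0.26, adjusted p = 1.4e-06) and Trpm1 (3.97 ± 0.67, adjusted p = 0.0015). In TET TKO, 7 of them were, with differences for Fgf17 (2.19 ± 0.59, adjusted p = 0.025), Gm13128 (2.85 ± 0.26, adjusted p = 2.1e-06), Krt42 (1.81 ± 0.36, adjusted p = 0.0038), Pgc (1.72 ± 0.48, adjusted p = 0.033), Pramel6 (4.35 ± 0.78, adjusted p = 0.0045), Pramel7 (3.63 ± 0.68, adjusted p = 0.0042) and Tcl1 (2.74 ± 0.28, adjusted p = 3.0e-05). The list holds Pramel6 and Pramel7, related inner cell mass genes counted from uniquely mapped reads only, and Tcl1, a naive marker. Baseline levels differ between the lines, and their part in these differences was not tested.

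Of the largest rises, Ctsh, encoding cathepsin H, differed in both lines, at -8.60 ± 0.63 in DNMT TKO (adjusted p = 5.8e-08) and -8.20 ± 0.84 in TET TKO (adjusted p = 6.2e-06). Clec2i, a C-type lectin gene, rose less in TET TKO, by -3.98 ± 0.89 (adjusted p = 0.0079). Among genes named whatever their change, the trophectoderm regulator Cdx2 differed by -2.37, the naive marker Zfp42 by -1.17, the mesoderm regulator T by -1.25 and Trim28 by 1.28, all in DNMT TKO. Trim28 was thus lowered less in DNMT TKO, while the effects on Cdx2, Zfp42 and T were lower there than in WT. The part of Trim28 in the differences was not tested. No group held 4 samples, and no outlier test of single libraries was run. Each WT library was left out in turn instead.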

How the results depend on the processing

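The number of genes that rose in WT (2200) ran from 1962 to 2295 and that of genes that fell (1329) from 1176 to 1364 over changes of scaling, filter, tool and libraries, and from 2028 to 2177 and from 1220 to 1344 when 1 WT library was left out. Without the fold threshold 4672 genes rose and 4605 fell. The differences from DNMT TKO numbered 779 to 999 up and 459 to 577 down, and those from TET TKO 329 to 486 up and 352 to 416 down, when 1 WT library was left out. With the replicate number as a block, a pairing that the values bear out for replicate 1 alone, 2202 genes rose and 1330 fell, the differences from DNMT TKO numbered 1080 up and 625 down and those from TET TKO 626 up and 598 down, and of the genes that the naming rule gives none lost its call, while Lin28a, named after its values were seen, did.

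Of 151 called genes that the naming rule gives, 16 lost it under at least 1 alternative, 15 of them when 1 library was left out, and none changed sign. Among these were Myc, Cdkn1c, Dusp6, Lefty2, T, Elf5, Atf3, Hspa1b, Nespas, Gsta4, Mmp19 and Cox6b2, and Dnmt3a fell below 2-fold (0.85) only without both replicate 1 libraries. Otx2 gained a call under 6 alternatives, the block among them. The sign changed for uncalled genes near 0. With 1 WT library left out, the log2 change ran from -0.13 to 0.030 for Tet1, from -0.56 to 0.038 for Gata6 and from -0.23 to 0.070 for Cdh1, and for Mdm2 it was -0.0046 without both replicate 1 libraries. The causes were not tested.

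Within 5 kb of the start, shares in risen genes, genes with no call and fallen genes were 13.5%, 8.64% and 6.62% for KAP1, 9.77%, 2.86% and 1.58% for KAP1-dependent H3K9me3, 55.5%, 76.2% and 70.7% for H3K4me3, and 33.3%, 18.1% and 35.4% for H3K27me3. Among genes at 1 CPM or more, within 1 kb, H3K4me3 was at 62.1%, 85.7% and 74.4%, H3K27me3 at 32.2% of risen genes and 9.68% of those with no call, and KAP1 and KAP1-dependent H3K9me3 at 4.73% and 0.538% of those with no call. The order of risen, uncalled and fallen genes was as before for KAP1 and H3K9me3. Depth limits the genes below 1 CPM in shEmpty, which are most of the risen ones, and their fold changes rest on few reads.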

Other observations

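Single members of several gene families changed, in either direction. Among the serpins, protease inhibitors, Serpina3m rose from 0.126 to 8.07 CPM (6.0 ± 0.45, log2) and Serpinb1c from 0.216 to 1.08 CPM (2.29 ± 0.46), while Serpinb1b fell from 2.20 to 0.0819 CPM (-4.63 ± 0.53) and Serpina3i from 1.62 to 0.257 CPM (-2.59 ± 0.37). These genes lie in clusters of close copies. Reads that map to several copies were discarded, so the level of each is uncertain. Keratins gave Krt20 at 0.118 to 1.85 CPM (3.73 ± 0.52) and Krt13 at 1.2 to 0.0144 CPM (-5.71 ± 0.99). Among matrix genes, Mmp12, the macrophage elastase, rose (3.67 ± 0.58), Mmp19 fell (-1.19 ± 0.25), the collagens Col13a1 (2.74 ± 0.25) and Col12a1 (2.88 ± 0.43) rose and Col5a3 (-2.34 ± 0.31) and Col6a4 (-1.87 ± 0.32) fell. The change of Mmp19 was -0.97 without shEmpty replicate 3 and -0.96 without shKap1 replicate 1, both under 2-fold.

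Among solute carriers the zinc and manganese importer Slc39a8 (3.99 ± 0.40) rose, while the citrate transporter Slc13a5 (-4.54 ± 0.57) and the phagosomal metal transporter Slc11a1 (-3.68 ± 0.35) fell. Of the zinc finger genes, Zfp608 (0.187 to 5.44 CPM, 4.91 ± 0.27) and Zfp575 (0.143 to 3.44 CPM, 4.50 ± 0.38) rose and Zfp553 fell from 191 to 67.8 CPM (-1.50 ± 0.09). Of 10 endothelial markers tested 3 fell and 1 rose, with the angiopoietin receptor Tek going from 12.6 to 2.43 CPM (-2.37 ± 0.18) and Vwf, the von Willebrand factor, from 23.2 to 3.77 CPM (-2.61 ± 0.22). The sarcomere genes Neb (-4.14 ± 0.31) and Tnni1 (-3.40 ± 0.57) fell as well, from 3.59 to 0.201 CPM and 6.34 to 0.595 CPM. The adjusted p of each of these genes except Mmp19 was at most 5.1e-04 by edgeR.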
